A study of Mus musculus with 20 samples.

Results

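Swiss 19 is 1 of 4 preadipose clonal lines of Swiss 3T3 fibroblasts, and its expression profile was set against that of the other 3, Swiss 2, Swiss 8 and Swiss 9. The arrays were chosen by the line name in their titles: 2 arrays of Swiss 19 and 9 of the other preadipose lines, out of 20 in the series. The remaining 9 arrays came from the non-adipogenic lines Swiss 3, Swiss 5 and Swiss 22, with 3 arrays each, and are used here only to show where Swiss 19 lies between the classes. Swiss 3T3 is an immortalized strain of mouse embryo fibroblasts. A preadipose line can turn into fat cells when induced, and a non-adipogenic line cannot. All 7 lines share the origin and were treated alike: they grew in DMEM with 10% bovine serum, which does not induce fat cells, and RNA was taken before growth arrest. No line carried a transgene or received a drug. Each line is 1 clone, so what holds for Swiss 19 holds for that clone. Whether replicate arrays reflect different cultures is not given in the labels, and p-values therefore measure only the spread between arrays, which may be technical.

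Fibroblasts make the collagen and glycoprotein matrix around them and pull on it through actin stress fibres. When serum response factor and its actin-sensing partner MRTF-A, or YAP with its TEAD partners, are active, fibroblasts raise smooth muscle actin and other contractile genes and take on a myofibroblast state. Fat cell formation goes the other way: the stress fibres are taken down, the matrix is remodelled, and C/EBP factors and PPARγ switch on genes of lipid storage.

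Swiss 19 carried more transcript for most of the contractile proteins, collagens and targets of YAP listed than the other 3 preadipose lines. Acta2, smooth muscle alpha-actin, was 3.30-fold and Col4a1, a basement membrane collagen chain, 2.73-fold higher on average over the lines. Cd34, a surface sialomucin of stromal progenitors, was present in the other 6 lines and not above background in Swiss 19. Relative to the common distribution of intensities, 13 of 29 mitosis genes (44.8%) and 7 of 22 serum-induced immediate early genes (31.8%) were lower, against 5.64% of all genes. Both medians turned positive with centred arrays or no normalization. The mitosis count was smaller without either Swiss 19 array, with medians of -0.28 and -0.32. Of 28 regulators that drive fat cell formation 5 were higher and 4 lower (17.9% and 14.3%, against 6.65% and 5.64% of all genes). The log2 differences of the 28 lay between -0.46 and 0.42.

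The 2 Swiss 19 arrays were the brightest pair among the preadipose lines, with mean intensities of 141.6 and 156.7 against 25.6 to 52.5 in the other 9, so the arrays were brought to one distribution before any comparison (quantile normalization). Levels below are normalized intensities on that common scale, where the background of an array lay between 4.66 and 10.1. Because all arrays of Swiss 2, 8 and 9 were dim, brightness and Swiss 19 cannot be told apart within the preadipose lines. Swiss 5 and Swiss 22 were as bright as Swiss 19 in the hybridization spikes, and 1 of the 3 arrays of Swiss 3 was bright. Within Swiss 3 the bright array minus the dim pair gave a median log2 difference of -0.064 over the 66 genes that are described below as set apart higher, 0.071 over the 19 set apart lower and -0.0041 over all genes. None of the 85 reached 1 in size, but of all 18193 genes only 2 rose and 2 fell by that much. This count therefore cannot tell the 85 from other genes, and the part of brightness was not tested. The 3′ over 5′ signal of Gapdh was 0.819 and 0.866 in Swiss 19 and 0.793 to 0.880 in the other 9 arrays. That of beta-actin was 1.09 and 1.10 in Swiss 19, above the range of 0.969 to 1.08 in the other 9, and its part in the results was not tested.

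Swiss 19 differed from the mean of Swiss 2, Swiss 8 and Swiss 9 in 2235 of 18193 genes (12.3%; limma with 1 term per line, Benjamini-Hochberg adjusted p below 0.05), 1209 higher (6.65%) and 1026 lower (5.64%). These are called genes below. This count rested on both arrays: without Swiss 19 replicate 1 it was 516 higher and 371 lower, and without replicate 2 it was 601 and 466. A gene was counted as set apart where Swiss 19 also differed from each of the 3 lines alone in the same direction and by at least 1 on the log2 scale against their mean. That left 85 genes (0.467%), 66 higher (0.363%) and 19 lower (0.104%); the count of lower genes fell to 11 without Swiss 19 replicate 1. In all 85 the Swiss 19 arrays lay outside the range of the 9 others, as they did in 13.7% of all genes (6.95% higher, 6.8% lower). By the same rule, each line in its turn against the other 3, Swiss 2 was set apart in 36 genes, Swiss 9 in 14 and Swiss 8 in 5, with 13, 9 and 0 of them higher. By called genes the order was another: Swiss 2 had 2627, above the 2235 of Swiss 19, Swiss 9 had 1540 and Swiss 8 had 1256, and the median absolute log2 difference was 0.104 for Swiss 2 and 0.102 for Swiss 19. Against the bright lines Swiss 5 and Swiss 22, 42 of the 66 were also higher than in both by adjusted p, and 11 of the 19 lower genes were lower than in both. In 43 of the 85 genes (0.236%), 33 higher (0.181%) and 10 lower (0.055%), Swiss 19 also differed the same way from all 3 non-adipogenic lines; these are called outside all 6 other lines. The contrasts with different lines share the Swiss 19 arrays. With the line rather than the array as the replicate, 1 line against 3, limma called 0 genes (0%), with 1769 at an unadjusted p below 0.05; it called 6 higher and 0 lower when all 7 line means shared the spread, and 23 higher and 5 lower over the brighter genes alone.

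The direction of the lower genes rests on the normalization. With arrays only centred on their medians the median of all genes rose to 0.28 and the split of set apart genes was 4337 higher to 1 lower, and with no normalization the median was 0.80 and the split 7974 to 1. With linear scaling it was 126 to 65, and with cyclic loess 89 to 39. All directions below are relative to genes of the common distribution. Of the 83 genes named by rule, 22 reversed with centred arrays and 24 with no normalization. Relative to the median of genes of like mean level under the same setting, all of these kept the sign of the main fit. With brightness (dim or bright) as a term beside the line, the called genes numbered 307 higher (1.69%) and 243 lower (1.34%) and the set apart genes 66 and 23, of which 62 were among the 85. Only Swiss 3 held both dim and bright arrays, so this term rests on its 2 dim arrays and 1 bright array. It cannot separate brightness from other traits of that 1 array, and calls kept or lost with it are read with this limit.

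**Figure D1:**
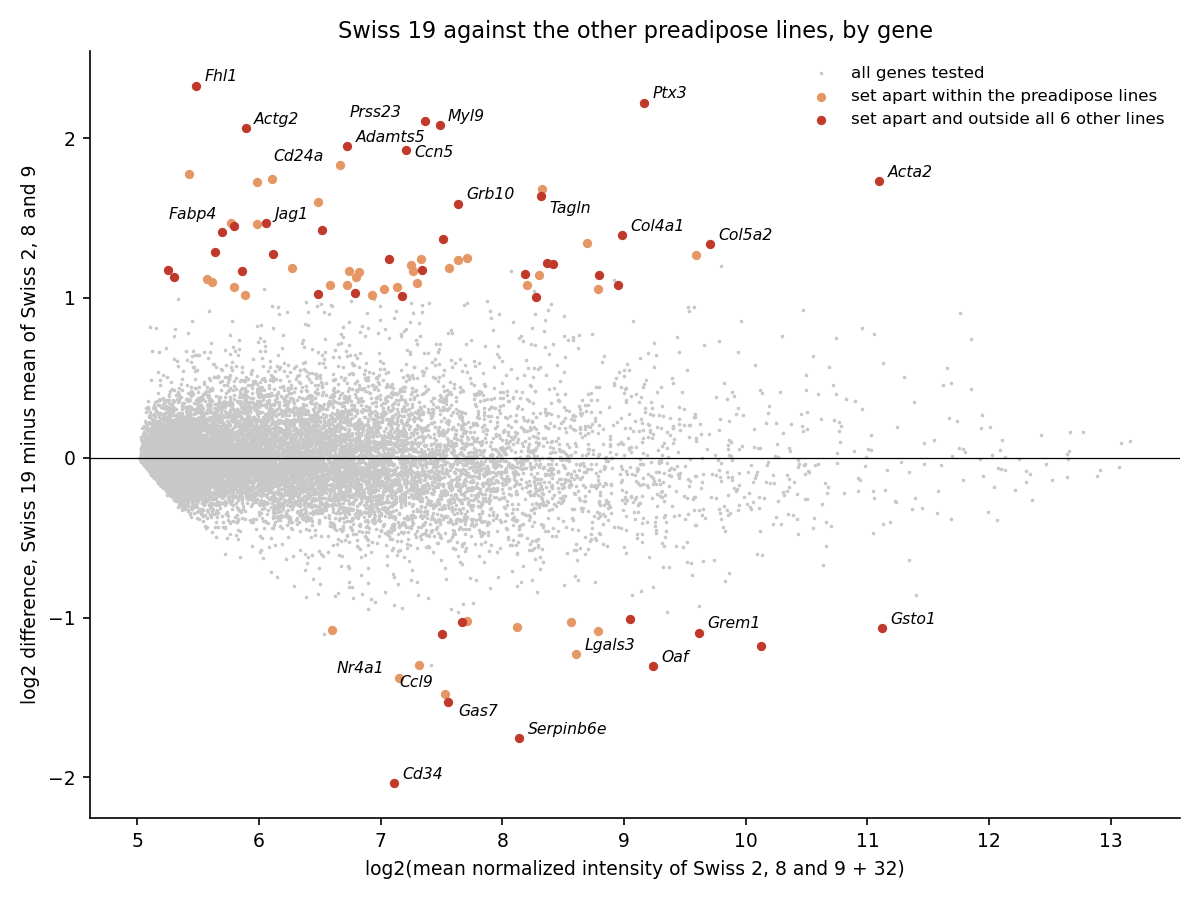
Each point is 1 of the 18193 genes: the horizontal axis gives the log2 of the mean normalized intensity of Swiss 2, 8 and 9 plus 32, and the vertical axis the log2 difference of Swiss 19 from the mean of these lines. Orange and red points are the 85 set apart genes, red those where Swiss 19 also differed from all 3 non-adipogenic lines the same way (43 genes); Fhl1 and Ptx3 lie highest and Cd34 lowest.

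Most genes of the contractile apparatus were higher. Of 26 measured contractile and actin genes, 18 were higher in Swiss 19 (69.2%, against 6.65% of all genes) and 2 were lower, with a median log2 difference of 0.49 against -0.022 over all genes, and 6 were set apart, all higher. With brightness as a term 13 were higher (50%, against 1.69% of all genes) and the same number, 6, were set apart higher. The median was also positive against each non-adipogenic line: 0.46 against Swiss 5, 0.48 against Swiss 22 and 0.85 against Swiss 3.

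Acta2, smooth muscle alpha-actin and the usual marker of myofibroblasts, read 6880 and 7356 in the Swiss 19 arrays, and 2080, 1612 and 1440 in Swiss 2, 2309, 2282 and 2003 in Swiss 8, and 2692, 2491 and 2491 in Swiss 9. The non-adipogenic arrays ran from 1079 to 2637 with a median of 2237. So Swiss 19 lay apart from all 18 other arrays. Its line mean was 7118 against 2156 ± 425 (SD, n = 3 lines), 3.30-fold, with a log2 difference of 1.73 ± 0.10 (SE; adjusted p = 9.2e-10); with linear scaling the fold was 2.01. All 3 probe sets of Acta2 differed in this direction, by 0.096 to 1.73. Actg2, the gamma actin of smooth muscle, read 185 and 216 in Swiss 19, 1.71 to 11.2 in Swiss 2, 11 to 25.2 in Swiss 8 and 55.6 to 59.6 in Swiss 9. Swiss 2 was at background for it, so the fold is at least 7.13 (log2 difference 2.06 ± 0.10, SE; adjusted p = 1.9e-10). The actins are close copies of each other, and whether their probes cross-hybridize was not tested.

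Myl9, the regulatory light chain of nonmuscle and smooth muscle myosin, read 683 and 627 in Swiss 19. It read 78.5, 56.0 and 63.3 in Swiss 2, 136, 134 and 104 in Swiss 8, and 266, 221 and 265 in Swiss 9. The other preadipose lines thus spread over several fold among themselves, and Swiss 19 stood above the highest, Swiss 9: the fold against the mean of the 3 was 4.46 (log2 difference 2.08 ± 0.10, SE; adjusted p = 8.7e-11). Tagln, the actin-bundling transgelin, read 948 and 943 against 195 to 358 in the 9 arrays and 149 to 411 in the non-adipogenic ones (1.64 ± 0.13, SE; adjusted p = 7.2e-08). Cnn1, calponin, read 51.1 and 54.9, while in the 9 arrays it ran from 1.37 to 22.1 with a median of 4.02; only Swiss 9 was above background, and the fold is at least 5.17. Vcl, vinculin of the focal adhesions that anchor stress fibres, read 738 and 766 against 252 to 372 (1.21 ± 0.08, SE; adjusted p = 1.2e-08). All 6 of these were also higher than in each non-adipogenic line.

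Smaller differences ran through the rest of the group. Csrp1, an actin-linked LIM protein, differed by 0.97, the tropomyosins Tpm1, Tpm2 and Tpm4 by 0.85, 0.60 and 0.42, leiomodin Lmod1 by 0.81, caldesmon Cald1 by 0.58, and the alpha-actinins Actn1 and Actn4 by 0.47 and 0.31. The group did not move as a block: Csrp2, the sister of Csrp1, read 23.5 and 29.6 in Swiss 19 and 58.5 to 112 in the 9 arrays (-0.88 ± 0.09, SE; adjusted p = 3.9e-06), and smoothelin Smtn was lower by a little (-0.28; adjusted p = 0.044). Srf, the serum response factor itself, read 55.6 and 52.8 against 28.8 to 58.7, and its difference of 0.09 missed the threshold (adjusted p = 0.67). Mrtfa, its actin-sensing partner, read 187 and 191 against 100 to 146 (0.50 ± 0.07, SE; adjusted p = 7.6e-05). Myh11, the heavy chain that marks mature smooth muscle, was not above background in Swiss 19 or in any of the 3 lines.

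**Figure D2:**
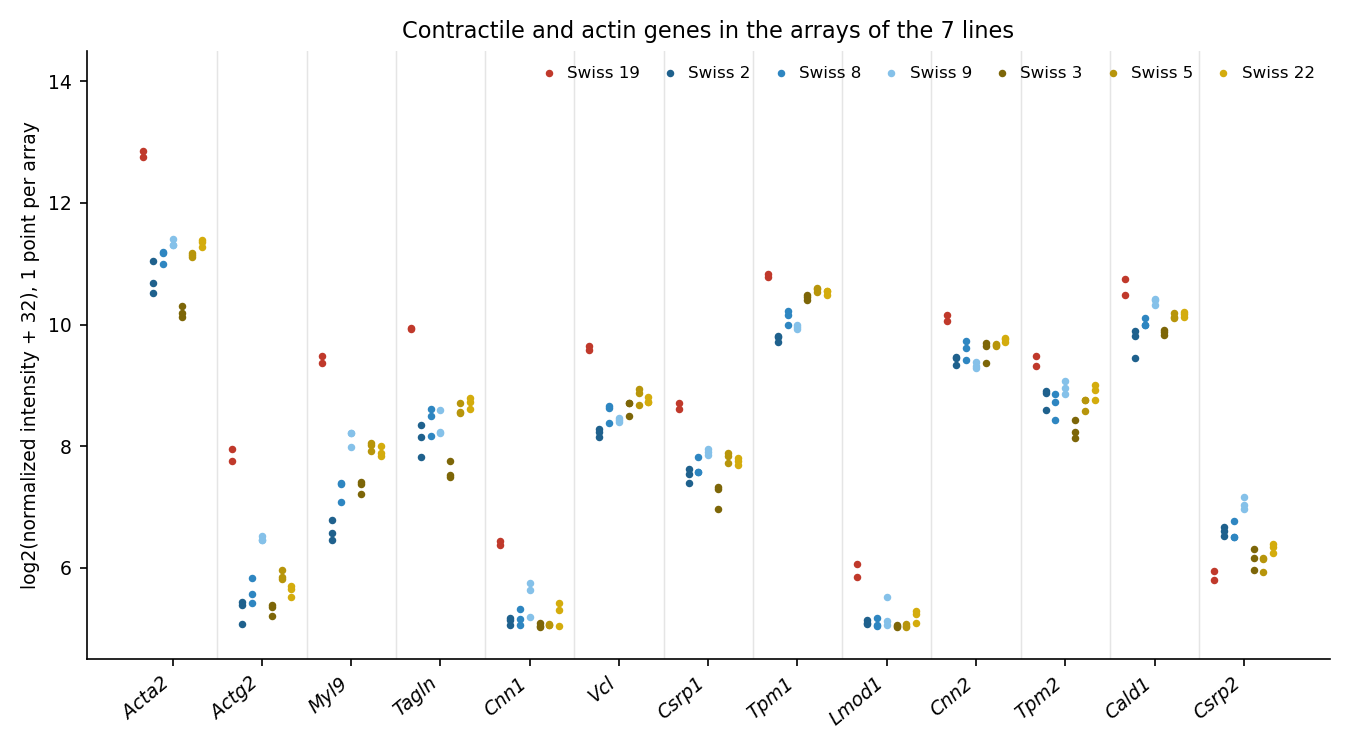
Each point is 1 array and each column of points 1 line (red, Swiss 19; blues, the other preadipose lines; yellows, the non-adipogenic lines); the vertical axis is log2 of normalized intensity plus 32 for 13 contractile and actin genes. Swiss 19 is the highest line for every gene from Acta2 to Cald1 and the lowest by line mean for Csrp2.

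Gene starts were read for the CArG box, the 10-base site of serum response factor, in the RefSeq windows of GRCm38.p6 from 250 bases before to 50 after a start. The box reads alike on both strands and was counted once. It was found for 5 of the 49 set apart higher genes that have such a window (10.2%), for 5 of 22 contractile and actin genes (22.7%) and for 229 of 14452 of all genes (1.585%). Of the contractile and actin genes called higher 3 of 16 held it (18.75%), a smaller share than in the whole list. A match is a string of letters, not a shown site. The 3 set apart higher genes of the cytoskeleton that hold one are printed from base 250 before the start to the start, 5′ to 3′ on the plus strand, with the box in capitals; Fhl1 is at chrX:56779433-56779682, Myl9 at chr2:156775214-156775463 and Vcl at chr14:20929148-20929397, with the box starting 102, 161 and 227 bases before the start.
Fhl1: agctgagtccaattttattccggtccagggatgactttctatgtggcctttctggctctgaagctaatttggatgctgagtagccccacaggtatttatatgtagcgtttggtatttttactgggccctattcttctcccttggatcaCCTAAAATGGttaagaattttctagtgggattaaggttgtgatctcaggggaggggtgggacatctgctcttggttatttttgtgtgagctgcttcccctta
Myl9: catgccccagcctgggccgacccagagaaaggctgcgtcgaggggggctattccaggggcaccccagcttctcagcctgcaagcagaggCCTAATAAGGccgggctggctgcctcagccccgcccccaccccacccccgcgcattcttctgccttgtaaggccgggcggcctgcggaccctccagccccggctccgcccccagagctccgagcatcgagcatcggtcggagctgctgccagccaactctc
Vcl: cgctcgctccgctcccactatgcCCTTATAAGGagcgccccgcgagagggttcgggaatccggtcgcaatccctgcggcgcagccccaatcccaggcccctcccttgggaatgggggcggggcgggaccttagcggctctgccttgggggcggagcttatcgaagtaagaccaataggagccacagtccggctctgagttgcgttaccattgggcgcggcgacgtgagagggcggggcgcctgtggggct
The other 2 of the 5 set apart higher genes were Igf2 and Meg3.

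Fhl1, a LIM-domain protein of muscle and stress fibres and owner of the first of these sequences, had the largest difference of all genes. It read 188 and 190 in Swiss 19 and 0.663 to 25.6 in the 9 arrays, and 9.81 to 17.6 in the non-adipogenic ones. Swiss 19 was thus at least 13.1-fold higher, with a log2 difference of 2.33 ± 0.10 (SE; adjusted p = 3.1e-11). A second, dimmer probe set of Fhl1 differed by -0.20.

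Target genes of YAP and TEAD, which respond to tension and cell spreading, were also higher: 9 of 17 measured (52.9%, against 6.65% of all genes), with 0 lower and 4 set apart (23.5%, against 0.363%), and a median of 0.43. With brightness as a term 6 of 17 were higher (35.3%, against 1.69%). Ccn2, connective tissue growth factor, read 127 and 132 in Swiss 19 and 7.44 to 74.0 in the 9 arrays (1.28 ± 0.17, SE; adjusted p = 3.0e-05), but lost the call with brightness as a term. Amotl2, an angiomotin that binds YAP, read 389 and 395 against 113 to 198 (1.19). Ankrd1, a nuclear ankyrin-repeat protein, read 71.9 and 69.7 against 8.57 to 29.6 (1.12), and Ccn1 read 228 and 258 against 42.2 to 165 (1.07). Against the non-adipogenic lines the median difference of the 17 genes was -0.036 for Swiss 5, 0.070 for Swiss 22 and 0.15 for Swiss 3, and the members differed among themselves. Ccn2 ran from 14.3 to 73.2 there and was outside all 6 other lines, while Amotl2 ran from 289 to 381, Ankrd1 from 73.5 to 105 and Ccn1 from 145 to 333. The letters GGAATG, which TEAD factors bind, stood on either strand of the window in 28.6% of the set apart higher genes, 66.7% of the 12 listed targets with a window and 15.3% of all genes; the motif can share its GG with the end of a CArG box.

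Swiss 19 carried more transcript for collagens than the other preadipose lines. Of 19 collagen genes measured, 13 were higher and 0 lower (68.4%, against 6.65%), with a median of 0.60, and 4 were set apart: Col4a1, Col5a2, Col12a1 and Col4a2. With brightness as a term 9 were higher (47.4%, against 1.69% of all genes) and 6 set apart higher (against 66 of all 18193 genes). The median was 0.53 to 0.88 above each non-adipogenic line too.

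Col4a1, a chain of basement membrane collagen, read 1343 and 1252 in Swiss 19 and 417 to 587 in the 9 arrays, which sat close together. The fold was 2.73 (1.40 ± 0.09, SE; adjusted p = 6.4e-09), and Col4a2, its partner chain, was 2.11-fold higher. Col5a2, which nucleates fibrils of collagen I, read 2099 and 2048 against 708 to 900, and 1330 to 1542 in the non-adipogenic lines, so that Swiss 19 lay beyond both classes (1.34 ± 0.06, SE; adjusted p = 8.7e-11). Of Col12a1, which coats fibrils, 2 of the 4 probe sets differed in this direction. Col1a1, the main fibril chain, read 6525 and 6255 against 2713 to 4126, a fold of 1.86 that fell to 1.14 with linear scaling, and Col3a1 read 2713 and 2491 against 894 to 1851.

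Matrix glycoproteins and proteoglycans followed, with 15 of 34 higher (44.1%, against 6.65% of all genes) and 2 lower (5.88%, against 5.64%; median 0.31); with brightness as a term 8 were higher (23.5%, against 1.69%). Dpt, dermatopontin, read 193 and 185 against 16 to 62.9 (1.75 ± 0.13, SE; adjusted p = 6.5e-08). Thbs1, thrombospondin 1, a TGF-β activator, read 1704 and 1824 against 475 to 1111, and Postn, periostin, 238 and 221 against 43.2 to 161. Dpt and Thbs1 reached as high in the non-adipogenic lines (102 to 738 and 1416 to 2012), so for these genes Swiss 19 differed from its own class and overlapped the other. Among remodelling enzymes and inhibitors 11 of 24 were higher (45.8%, against 6.65%) and 2 lower (8.33%, against 5.64%; median 0.22). The counts were 7 and 1 with brightness as a term (29.2% and 4.17%, against 1.69% and 1.34%). Adamts5, a protease of aggrecan and versican, read 389 and 340 in Swiss 19 and 37.7 to 109 in the 9 arrays (1.95 ± 0.10, SE; adjusted p = 2.5e-10; all 4 probe sets in this direction). Adamts1 was 2.60-fold and the inhibitor Timp3 2.64-fold higher. Timp1 was lower (716 and 664 against 856 to 1549; -0.61), as was the gelatinase Mmp9 (-0.69).

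Other secreted products were among the largest differences. Ptx3, the long pentraxin of innate defence, read 2621 and 2578 in Swiss 19, 409 to 435 in Swiss 2, 646 to 706 in Swiss 8, 486 to 560 in Swiss 9 and 933 to 1391 in the non-adipogenic lines. Swiss 19 was 4.80-fold above the other preadipose mean (2.22 ± 0.06, SE; adjusted p = 7.2e-14). Prss23, a secreted serine protease, read 624 and 661 against 63.1 to 197 (2.11), Ccn5, a CCN protein without the growth factor-like tail of its relatives, 514 and 532 against 87.5 to 172 (1.92), and Tgm2, the transglutaminase that cross-links matrix, 129 and 109 against 18.4 to 38.6 (1.45). These 4 were outside all 6 other lines. Cemip, which breaks down hyaluronan, read 250 and 218 against 29.3 to 83.1 but 228 to 305 in the non-adipogenic lines. Saa3, an acute phase apolipoprotein, read 981 and 904 against 126 to 474 and 199 to 867 in the non-adipogenic lines.

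**Figure D3:**
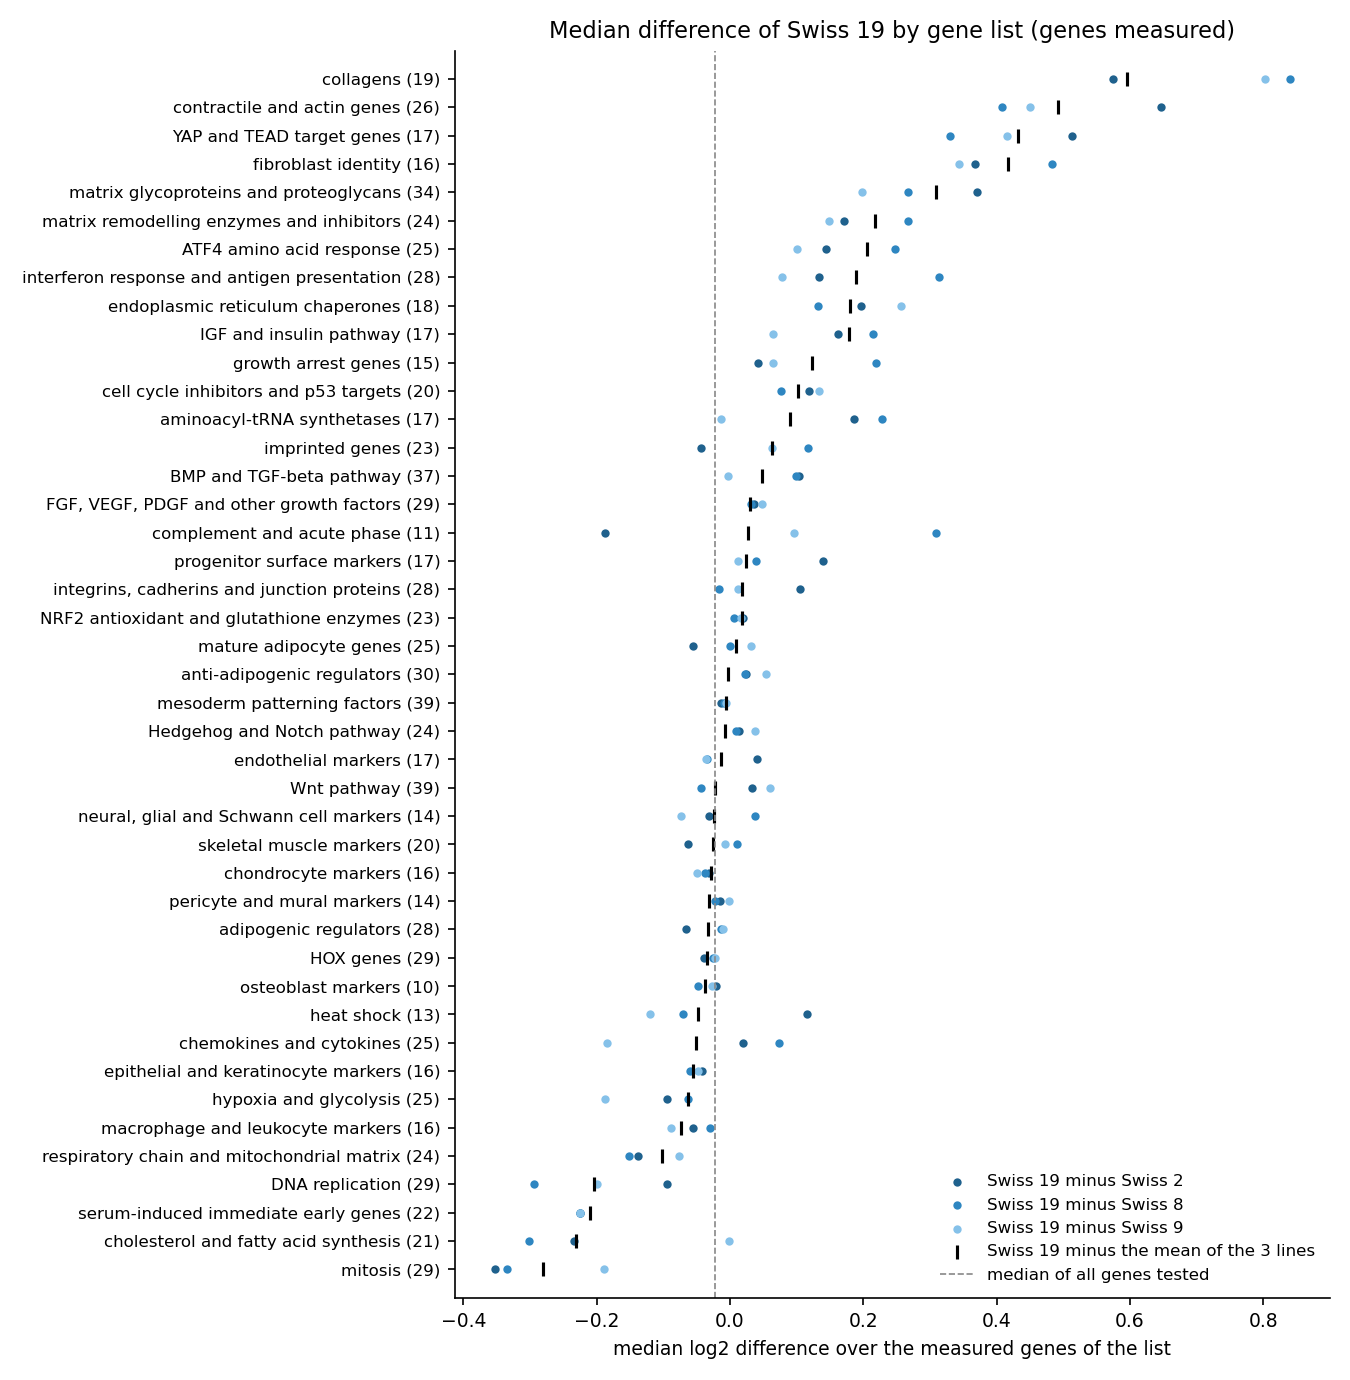
For each of the 43 gene lists (number of measured genes in brackets) the points give the median log2 difference of Swiss 19 from Swiss 2, Swiss 8 and Swiss 9 (blues), the black bar that from their mean, and the dashed line the median of all genes, -0.022. Collagens (0.60), contractile and actin genes (0.49) and YAP and TEAD targets (0.43) lie highest, with all 3 points to the right of the line, and mitosis (-0.28) lowest.

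Surface markers changed in both directions. Cd34, the sialomucin that marks many fibroblast and stromal progenitors, was the most reduced gene. It read 0.628 and 1.05 in Swiss 19, under the background of those arrays, against 78.9, 94.5 and 84.4 in Swiss 2, 86.9, 82.6 and 76.2 in Swiss 8 and 163, 140 and 148 in Swiss 9. All 9 non-adipogenic arrays held it too, from 102 to 196, so that Swiss 19 was the 1 line of 7 without a signal for it. The fold is at least 17.9 (log2 difference -2.04 ± 0.08, SE; adjusted p = 1.0e-11); 1 probe set measures the gene here. Cd24a, a small glycoprotein of fat cell progenitors, went the other way: 313 and 278 in Swiss 19, 14.6 to 17.5 in Swiss 2, 73.2 to 93.2 in Swiss 8, 110 to 117 in Swiss 9 and 127 to 339 in the non-adipogenic lines (1.83 ± 0.08, SE; adjusted p = 8.7e-11).

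Of the 17 measured progenitor surface markers 6 were higher (35.3%, against 6.65%) and 4 lower (23.5%, against 5.64%). The counts were 5 and 2 with brightness as a term (29.4% and 11.8%, against 1.69% and 1.34%). Pdgfrb, a receptor of mesenchymal and mural cells, read 286 and 318 against 104 to 151 (1.09), and Pdgfra, the receptor that marks fat cell progenitors, 538 and 444 against 216 to 360 (0.69 ± 0.13, SE; adjusted p = 0.0011; call lost with brightness as a term), far under its 1273 to 1959 in the non-adipogenic lines. Thy1 was lower by 0.53 and the tetraspanin Cd9 by 0.86. Among adhesion molecules 7 of 28 were higher (25%, against 6.65%) and 0 lower, but 3 were higher and 1 lower with brightness as a term (10.7% and 3.57%, against 1.69% and 1.34%). Itgb1, the beta chain shared by most matrix-binding integrins, read 579 and 647 against 228 to 303 and 339 to 425 in the non-adipogenic lines (1.15 ± 0.06, SE; adjusted p = 5.6e-10; 6 of 6 probe sets in this direction). Cdh11, the cadherin of mesenchymal cells, was 2.11-fold higher.

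Markers were read for the labelled cell type and for others. Of 16 fibroblast markers 15 were above background in Swiss 19, and their summed level was 31875 and 33632, against 21358 to 27556 in the 9 arrays; 10 were called higher (62.5%, against 6.65% of all genes) and 1 lower, with a median log2 difference of 0.42. The counts were 5 higher (31.2%, against 1.69%) and 0 lower with brightness as a term. Of 14 pericyte and mural markers 10 were above background, with a sum of 514 and 517 against 295 to 350, of which Pdgfrb alone made up 286 and 318 against 104 to 151. The median difference of the 14 was -0.031, with 4 positive. Called higher were 2 (14.3%, against 6.65% of all genes), Pdgfrb and Notch3 (0.61), while Rgs5 read 8.42 and 5.60 against 5.86 to 10.7. By limma, the endothelial, macrophage, skeletal muscle and epithelial lists had 0 genes called, against 6.65% higher and 5.64% lower of all genes. Pecam1, Ptprc and Myod1 were not above background in Swiss 19, but other members were. By line mean, 11 of 17 endothelial, 9 of 16 macrophage, 6 of 20 skeletal muscle, 7 of 16 epithelial and 12 of 14 neural markers were above it. In Swiss 2, Swiss 8 and Swiss 9 the counts were 5, 8 and 9 for endothelial, 8, 9 and 10 for macrophage and 7 in each for skeletal muscle markers. They were 6, 8 and 8 for epithelial and 7, 10 and 10 for neural markers. The summed levels in Swiss 19 and in the 9 arrays were 136 to 155 against 121 to 176 for endothelial, 221 to 232 against 222 to 279 for macrophage, 123 to 137 against 105 to 182 for skeletal muscle and 117 to 126 against 126 to 235 for epithelial markers. Osteoblast markers, which include Col1a1, summed to 7098 and 7346 against 3454 to 5169, with 1 of 10 called higher (10%, against 6.65%), Col1a1 itself. Chondrocyte markers had 1 of 16 lower (6.25%, against 5.64%), Sox9, and neural markers 1 of 14 higher (7.14%, against 6.65%), Ncam1 (0.60). Both shares were near those of all genes, and Ncam1 lost the call with brightness as a term.

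Regulators and products of fat cell formation were read next. Of 28 adipogenic regulators 5 were higher and 4 lower (17.9% and 14.3%, against 6.65% and 5.64% of all genes), with differences from -0.46 to 0.42 and 0 set apart. With brightness as a term limma called 0 of them (against 1.69% higher and 1.34% lower of all genes). Pparg, the nuclear receptor that drives fat cell formation, read 29.2 and 21.9 in Swiss 19, 37.0 to 52.2 in Swiss 2, 32.1 to 37.4 in Swiss 8 and 42.6 to 59.6 in Swiss 9, so that the arrays did not overlap; the non-adipogenic lines ran from 13.3 to 39.4. The difference was -0.39 ± 0.10 (SE; adjusted p = 0.013). Cebpa, its partner, was lower by as much (-0.39; adjusted p = 0.023), with overlap: 17.6 and 26.9 against 25.4 to 53.1. Both calls were lost with brightness as a term. Cebpb differed by 0.21 (adjusted p = 0.058) and Cebpd by 0.35 (adjusted p = 0.0038), and for each a second probe set went the other way (-0.22 and -0.54). Zfp423, a zinc finger factor of preadipocyte commitment, was not above background in any preadipose line.

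Of 25 genes of mature fat cells, 2 were higher and 1 lower (8.00% and 4.00%, near the 6.65% and 5.64% of all genes). Fabp4, the fatty acid carrier of fat cells, read 116 and 120 in Swiss 19 against 7.12 to 34.4 in the 9 arrays and 54.5 to 102 in the non-adipogenic lines. Swiss 19 was 5.21-fold above the other preadipose mean and the highest of the 7 lines (1.47 ± 0.13, SE; adjusted p = 5.7e-07; 3 of 4 probe sets in this direction). Lpl, lipoprotein lipase, read 349 and 335 against 208, 248 and 165 in Swiss 2, 69.4, 79.1 and 116 in Swiss 8 and 195, 236 and 244 in Swiss 9, while the non-adipogenic arrays held 9.54 to 46.9. Its difference was 0.95 ± 0.13 (SE; adjusted p = 7.3e-05), and the call was lost with brightness as a term. Fasn, fatty acid synthase, was lower by 0.35. Adipoq and Cidec, which appear in formed fat cells, were not above background in Swiss 19. Of 30 anti-adipogenic regulators 3 were higher and 2 lower (10% and 6.67%, against 6.65% and 5.64% of all genes). The counts were 0 and 1 with brightness as a term (0% and 3.33%, against 1.69% and 1.34%). The member with the largest difference, Sox9, which holds back fat cell formation, read 29.2 and 29.3 against 55.1 to 113 (-0.78 ± 0.11, SE; adjusted p = 4.9e-05).

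Genes of the IGF pathway and imprinted genes were higher in 5 of 17 and 7 of 23 cases (29.4% and 30.4%, against 6.65% of all genes), and in 4 and 5 with brightness as a term (23.5% and 21.7%, against 1.69%). Grb10, an imprinted adaptor that damps insulin and IGF receptors, read 574 and 549 in Swiss 19, 122 to 217 in the 9 arrays and 282 to 468 in the non-adipogenic lines (1.59 ± 0.09, SE; adjusted p = 6.0e-10). Igf2, the imprinted fetal growth factor, read 106 and 99.3 against 1.62 to 38.6 and 2.21 to 47.1 (1.41 ± 0.16, SE; adjusted p = 7.3e-06), so that Swiss 19 was above all 18 other arrays. The receptor Igf1r was 1.85-fold higher. The other imprinted genes that were higher, with 0 lower, were Meg3, a maternally expressed RNA (2.53-fold), Ndn, Dcn, Peg3 and Sgce. The 2 lower genes of the IGF pathway were the binding proteins Igfbp4 and Igfbp6.

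In the BMP and TGF-β pathway 13 of 37 were higher and 5 lower (35.1% and 13.5%, against 6.65% and 5.64%), and 4 and 3 with brightness as a term (10.8% and 8.11%, against 1.69% and 1.34%). By role, the ligand Gdf10 read 154 and 158 in Swiss 19, 1.31 to 3.25 in Swiss 2, 11.6 to 28.1 in Swiss 8, 57.7 to 86.6 in Swiss 9 and 270 to 725 in the non-adipogenic lines. It thus differed in each preadipose line, and Swiss 19 lay between Swiss 9 and the other class (1.73 ± 0.11, SE; adjusted p = 3.7e-09). The ligands Tgfb2 and Tgfb3 differed by 0.48 and 0.57 and the receptors Tgfbr1, Tgfbr2 and Tgfbr3 by 0.30, 0.27 and 0.55. The BMP antagonist Grem1, gremlin, read 285 and 370 against 486 to 1084 and 636 to 970 (-1.09 ± 0.11, SE; adjusted p = 2.1e-06), the lowest of the 7 lines. The BMP target Id1 was lower too (303 and 295 against 456 to 743; -0.97), as was Tgfbi, a TGF-β-induced matrix protein (12.2 and 11.4 against 25.2 to 105; -0.87). The Hedgehog and Notch list had 4 of 24 genes higher and 1 lower (16.7% and 4.17%, against 6.65% and 5.64%), with a median of -0.0073. The counts were 2 and 0 with brightness as a term (8.33% and 0%, against 1.69% and 1.34%). Of the Notch genes, the ligand Jag1 read 147 and 156 in Swiss 19 against 23.1 to 44.4 and 42.2 to 69.9 (1.47 ± 0.11, SE; adjusted p = 3.9e-08), and the receptors Notch2 and Notch3 and the target Hes1 were higher by 0.41, 0.61 and 0.40.

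Part of the genes of cell division were lower, a direction that turned with centred arrays or no normalization, as did those of the immediate early, glycolysis, cholesterol and respiratory lists below. Of 29 mitosis genes 13 were lower and 0 higher (44.8%, against 5.64%), with a median of -0.28, and 5 were lower with brightness as a term (17.2%, against 1.34%). Without Swiss 19 replicate 1 there were 6 (20.7%, against 2.04% of all genes) and without replicate 2 there were 3 (10.3%, against 2.56%). Birc5, survivin, read 223 and 219 in Swiss 19 against 354 to 445 (-0.78 ± 0.07, SE; adjusted p = 2.4e-07), and Ccna2 and Ccnb2, the S-phase and mitotic cyclins, were lower by 0.76 and 0.65. Against Swiss 3 the mitosis median was 0.62, so Swiss 19 was not the lowest of the lines. Against the bright lines Swiss 5 and Swiss 22 the median was -0.22 and -0.25. Of 29 replication genes 8 were lower (27.6%, against 5.64%) and 1 higher (median -0.20), and 2 were lower with brightness as a term (6.9%, against 1.34%). Tk1, thymidine kinase, read 131 and 153 against 237 to 319 (-0.84 ± 0.08, SE; adjusted p = 1.1e-06), while Mki67, the proliferation antigen, read 233 and 215 within the 156 to 340 of the 9 arrays (-0.09; adjusted p = 0.68).

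Serum-induced immediate early genes were lower in 7 of 22 cases (31.8%, against 5.64%) and higher in 0, with 5 lower when brightness was a term (22.7%, against 1.34%). Nr4a1, the orphan receptor that serum induces rapidly, read 24.5 and 20.2 in Swiss 19, 76.1 to 153 in the 9 arrays and 26.4 to 49.4 in the non-adipogenic lines (-1.38 ± 0.10, SE; adjusted p = 3.9e-08). Fosl1, the AP-1 subunit FRA1, read 68.5 and 71.3 against 141 to 211 (-1.02 ± 0.11, SE; adjusted p = 3.0e-06), and Egr1, Ier2, Junb, Myc and Spry2 were lower by 0.69, 0.69, 0.60, 0.45 and 0.84. In Nr4a1 and Fosl1 the Swiss 19 arrays lay within or below the range of the non-adipogenic lines.

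Of 25 hypoxia and glycolysis genes 8 were lower (32%, against 5.64%) and 2 higher (8%, against 6.65%). The counts were 4 lower (16%, against 1.34%) and 0 higher with brightness as a term. Ldha, lactate dehydrogenase A, read 1456 in both Swiss 19 arrays against 2480 to 2964 (-0.86 ± 0.06, SE; adjusted p = 1.8e-08) and 716 to 1394 in the non-adipogenic lines, and Vegfa read 48.6 and 49.8 against 78.7 to 141 (-0.75). In cholesterol and fatty acid synthesis 7 of 21 were lower (33.3%, against 5.64%) and 0 higher, led by the isoprenoid enzyme Idi1 (-0.55), but 0 with brightness as a term. The respiratory chain had 6 of 24 lower (25%, against 5.64%) and 1 higher, but 1 lower (4.17%, against 1.34%) and 0 higher with brightness as a term. Sdhb, a subunit of succinate dehydrogenase, read 345 and 348 against 431 to 540 (-0.45). Gsto1, an omega-class glutathione transferase, read 1020 and 1028 in Swiss 19 and 1770 to 2559 in the 9 arrays, and 1837 to 2878 in the non-adipogenic ones (-1.07 ± 0.07, SE; adjusted p = 1.2e-08); a dimmer probe set of it differed by 0.40.

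Several modestly higher groups depended on the fit. Of 28 interferon and antigen presentation genes 12 were higher (42.9%, against 6.65%) and 2 lower, but 1 was higher with brightness as a term (3.57%, against 1.69%). Bst2, tetherin, read 94.9 and 109 against 8.51 to 69.3 and lost the call with that term. Of 25 ATF4 amino acid response genes 9 were higher (36%, against 6.65%) and 0 lower, and 3 were higher with brightness as a term (12%, against 1.69%). The neutral amino acid transporter Slc7a5 read 227 and 231 against 77.1 to 146 (0.92) and lost the call with brightness as a term. Endoplasmic reticulum chaperones had 8 of 18 higher (44.4%, against 6.65%), and 0 with brightness as a term. Chemokines and cytokines went both ways, 7 of 25 higher and 4 lower (28% and 16%, against 6.65% and 5.64%): Ccl20 read 51.0 and 55.7 against 2.21 to 21.5, and Ccl9 32.5 and 34.6 against 113 to 197 (-1.48 ± 0.09, SE; adjusted p = 2.3e-09), the level of the non-adipogenic lines (21.9 to 38.8). The call of Ccl20 was lost with brightness as a term, and 4 of the 25 were then higher and 1 lower (16% and 4%, against 1.69% and 1.34%). Of 29 HOX genes, which record the body position a fibroblast came from, 0 were called by limma, against 6.65% higher and 5.64% lower of all genes. Hoxb2 differed most (0.35, adjusted p = 0.21 by limma).

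Other lower genes were among the largest differences. Serpinb6e, an intracellular serpin, read 38.5 and 55.6 against 75.1 to 385 (-1.75 ± 0.31, SE; adjusted p = 0.00084; call lost with brightness as a term). Gas7, a growth arrest-specific protein that binds actin, read 25.4 and 28.4 against 40.3 to 310 (-1.53 ± 0.19, SE), and Oaf read 212 and 209 against 457 to 671 (-1.30 ± 0.07, SE). Anxa8, an annexin, read 36.0 and 24.3 against 68.6 to 204, and Lgals3, galectin 3, 132 and 125 against 221 to 503. The last pair marks the preadipose class, with 5.17 to 27.1 and 0.569 to 11.3 in the non-adipogenic lines, and Swiss 19 held less of both than its class. Tspan11, a tetraspanin, read 54.1 and 47.7 against 98.1 to 229, and Ncaph2, a condensin II subunit, 158 and 191 against 306 to 539. Cysrt1 read 12.6 and 12.0 against 27.1 to 107, Rpf2, a ribosome assembly factor, 103 and 89.0 against 148 to 360, and Fen1, the flap endonuclease of replication, 76.9 and 55.2 against 132 to 278; Cysrt1 and Fen1 lost the call with brightness as a term. Hnrnpab, an RNA-binding protein, was 2.33-fold lower on its brightest probe set, with 5 of 7 probe sets in this direction.

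The counts of the remaining lists are read against 6.65% higher and 5.64% lower over all genes. Growth arrest genes had 6 of 15 higher and 3 lower (40% and 20%), the latter with Gas7 (-1.53) among them; Txnip, the thioredoxin-binding protein, read 194 and 186 against 50.9 to 109 (1.03). Complement and acute phase genes had 3 of 11 higher and 2 lower (27.3% and 18.2%), with Saa3 the most different (1.68). The Wnt pathway had 7 of 39 higher and 1 lower (17.9% and 2.56%), with Ccn5 the most different (1.92). Growth arrest, complement and Wnt genes had 3, 1 and 4 higher with brightness as a term (20%, 9.09% and 10.3%, against 1.69%). Lower with that term were 1, 1 and 0 of them (6.67%, 9.09% and 0%, against 1.34%). Aminoacyl-tRNA synthetases had 7 of 17 higher and 1 lower (41.2% and 5.88%), led by Lars (0.47), with 0 when brightness was a term. Growth factors had 5 of 29 higher and 3 lower (17.2% and 10.3%), and 1 and 1 with brightness as a term. Cell cycle inhibitors and p53 targets had 4 of 20 higher and 1 lower (20% and 5%), led by Gadd45b (0.43), and antioxidant enzymes 3 of 23 and 1 (13% and 4.35%), led by Mgst1 (0.71). Both of these lists had 0 higher with brightness as a term. Heat shock genes had 2 of 13 higher and 2 lower (15.4% each), and 1 and 1 with brightness as a term (7.69% each, against 1.69% and 1.34%). Hspb1, the small heat shock protein, read 460 and 462, above Swiss 2 and Swiss 8 (67.6 to 197) and below Swiss 9 (549 to 580). Mesoderm patterning factors had 1 of 39 higher, Tbx18 (0.68), and 2 lower (2.56% and 5.13%), but 0 with brightness as a term. Aldh1a1, a retinaldehyde dehydrogenase, read 121 and 101 in Swiss 19 against 0.564 to 31.3 in the 9 arrays and 27.7 to 162 in the non-adipogenic lines (1.77), and Adm, adrenomedullin, 133 and 145 against 13.2 to 46.2 and 88.4 to 131 (1.46).

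Where Swiss 19 lies between the classes was read on genes chosen without it: 470 genes differed by limma between the line means of Swiss 2, 8 and 9 and those of the 3 non-adipogenic lines. On a scale where 0 is the non-adipogenic mean and 1 the mean of Swiss 2, 8 and 9, Swiss 19 had a median position of 0.626 (quartiles 0.312 and 0.917). All arrays that set the 1 were dim, and those that set the 0 were bright except for 2 of Swiss 3. Class and brightness thus largely coincide on this scale, Swiss 19 is bright, and the part of brightness in its position was not tested. From its arrays alone the medians were 0.598 and 0.618. It lay nearer the non-adipogenic mean in 191 genes, beyond that mean in 42 and beyond its own class in 95. By the same measure, each left out of the choice of genes in its turn, Swiss 2 was at 1.01, Swiss 8 at 0.896 and Swiss 9 at 0.890, over 104, 85 and 131 genes. These sets of genes differ and were chosen with the bright Swiss 19 on the preadipose side, so the values are not matched to that of Swiss 19. They are a description with no test. With only the dim arrays of Swiss 3 for the non-adipogenic side, so that both sides were dim, the position was 0.744 over 378 genes.

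**Figure D4:**
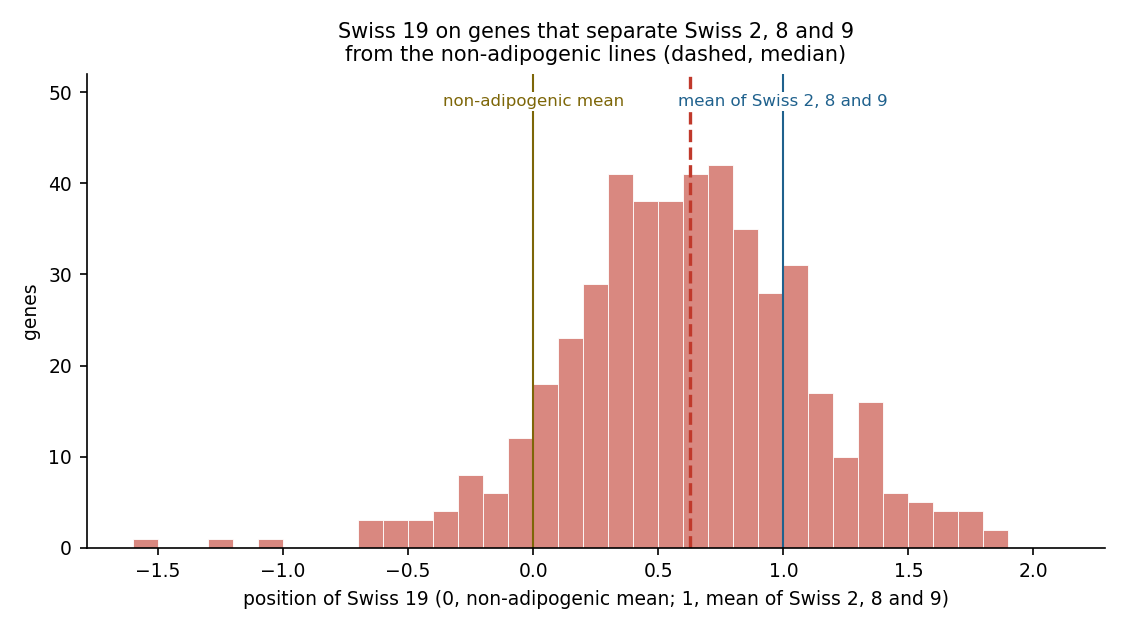
The horizontal axis is the position of Swiss 19 on each of 470 genes that separate Swiss 2, 8 and 9 (1, blue line) from the non-adipogenic lines (0, yellow line), and the vertical axis the number of genes. The median of 0.626 (dashed) lies between the classes, and the tails run past both.

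Genes of known role lay at both ends. Edn1, the peptide endothelin 1, read 28.0 and 29.3 in Swiss 19, was not above background in Swiss 2, 8 or 9 and ran from 0.886 to 25.1 in the non-adipogenic lines. These levels lie near background, so its position carries no order. Ptx3 (-1.24), Itgb1 (-1.09), Grb10 (-0.672), Col5a2 (-0.624) and Fabp4 (-0.508) lay past the non-adipogenic mean. At the other end Lpl was at 1.51, Thbd, thrombomodulin, at 1.53 (196 and 175 against 40.1 to 164) and Efemp1, fibulin 3, at 1.31 (261 and 237 against 87.4 to 205, and 0.409 to 6.55 in the non-adipogenic lines). So Swiss 19 carried some class markers above its own class while others lay with the non-adipogenic lines. Correlation over the 9096 brighter genes, given as a description, was 0.992 between the Swiss 19 arrays; its line mean correlated at 0.953, 0.959 and 0.962 with Swiss 2, 8 and 9 and at 0.929, 0.956 and 0.960 with Swiss 3, 5 and 22, while Swiss 2, 8 and 9 correlated at 0.966 to 0.981 with each other.

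Along the genome, chromosome 17 had the lowest median of the chromosomes plotted. Over 837 genes their median log2 difference was -0.072, against -0.020 for genes on the other chromosomes, and 126 were called lower (15.05%, against 5.199%). Counting only genes above background in all 4 preadipose lines, a set added after the data were seen, the median was -0.142 over 513 genes against -0.0055 over the rest, 124 were called lower (24.17%, against 8.709%), and 23.6% had a positive difference against 49.0%. Chromosome 11 was the next lowest of the chromosomes plotted by this measure, with a median of -0.070 over 906 genes, 14.13% called lower and 36.1% positive. On chromosome 17 the median of the 513 genes was -0.20, -0.11 and -0.13 against Swiss 2, Swiss 8 and Swiss 9. Against Swiss 3, Swiss 5 and Swiss 22 it was -0.060, -0.071 and -0.092. In windows of 25 neighbouring genes, the 3 lowest medians of 17637 windows were all on chromosome 17: -0.22 from Phf1 to Fance, -0.21 from Uhrf1 to Khsrp and -0.20 from Ccnf to Ndufb10. The 3 highest lay on chromosomes 18, 4 and 8, each with a median of 0.18. Taken as the chromosome 17 median minus that of the other chromosomes, the value was -0.052 over all genes and turned to 0.035 with centred arrays or no normalization, while over the genes above background it was -0.137 and remained negative with both (-0.144).

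**Figure D5:**
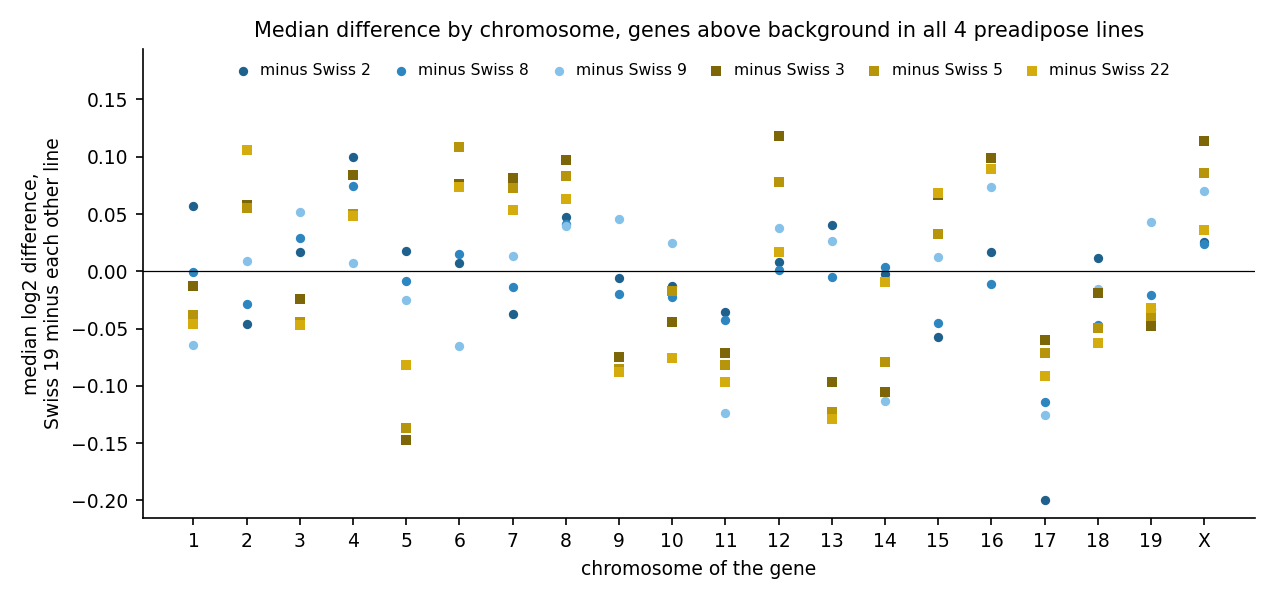
For each chromosome the points give the median log2 difference of Swiss 19 from each of the 6 other lines (circles, preadipose; squares, non-adipogenic) over genes above background in all 4 preadipose lines. On chromosome 17 the 6 points lie between -0.20 and -0.060.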

How the data were processed

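Total RNA of 20 samples of 7 Swiss 3T3 clonal lines was hybridized to 3′ oligonucleotide arrays as biotin-labelled cRNA, per the labels' protocols. The deposited values are linear intensities of 45101 probe sets per array; how probes were summarized or scaled is not given in the sources used here. Groups were taken from the line names in the titles. After 64 control probe sets were left out, log2(intensity + 32) was quantile-normalized over the 20 arrays. Of the probe sets 34945 carried 1 gene symbol, 932 several and 9160 none; the brightest single-symbol probe set stood for each of 18193 genes. A linear model with 1 term per line was fitted to all 20 arrays with limma 3.58.1 in R 4.3.3, with Benjamini-Hochberg adjustment over all genes at 0.05. The code was run on simulated data in which lines differed only by shifts added to Swiss 19. That simulation held no brightness differences, no normalization and no spread between other lines, so it cannot speak to these. Normalized intensity is the normalized value with the log2 and the 32 undone. The background of an array is the 95th percentile of 27 bacterial controls that were not spiked in, and a fold is written "at least" where a line of the comparison was not above it. Chips limit precision by their number, 2 for Swiss 19.

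Named were the 15 most different set apart genes in each direction, the 8 in each direction farthest from the nearest of all 6 other lines, up to 3 set apart members of each of 43 gene lists or else its most different member, and 8 fixed genes of fat cell formation; clone-like names were passed over. Other genes given as examples were chosen after their values were seen. The comparison and the lists, of which 969 of 1035 entries were matched, were chosen with earlier results of these data known. Promoters came from RefSeq. Alternatives varied the pseudocount, the normalization, the probe set rule, the genes kept, brightness terms and the arrays included. Replicate numbers did not pair arrays: correlations of deviations between same-numbered arrays of different lines ran from -0.068 to 0.094.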

Additional observations from a re-analysis of the deposited data

How the results depend on the processing

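Of the 76 named genes past the threshold, 34 were called under all 16 alternative settings and with each of the 11 preadipose arrays left out, and 54 kept their sign in all of them; 56 kept the call with brightness as a term and 54 with the spike level as a covariate. Leaving out 1 array at a time gave 516 to 1264 higher and 371 to 1081 lower genes for the mean contrast, 63 to 69 and 11 to 19 set apart, 31 to 35 and 5 to 11 outside all 6 other lines, and 0 for line means; the position, rerun without each of the 2 Swiss 19 arrays only, was 0.598 to 0.618. The cause of the changes below was not tested. With arrays centred on their medians the mean contrast gave 9213 higher and 4638 lower genes, 4337 and 1 set apart, 708 and 1 outside all 6 lines, 7909 and 4522 for line means, and a position of 1.61 over 2 genes. With no normalization these were 14034 and 1, 7974 and 1, 1191 and 1, 13777 higher for line means, and 0.875 over 1 gene. Cyclic loess gave 1965 and 1809, 39 set apart lower, 63 and 30 outside and a position of 0.755. Linear scaling gave 126 and 65 set apart, 26 outside lower and a position of 0.671. A pseudocount of 4 gave 125 and 60 set apart and 27 outside lower, and the higher one gave 19 and 3 set apart, 15 and 3 outside and a position of 0.652. The mean over probe sets gave 9 set apart lower, 4 outside lower and a position of 0.667. Brightness as a term gave 307 and 243 for the mean contrast, and the spike level as a covariate 239 and 161. Line means gave 6 higher with all 7 lines in the fit and 23 and 5 over the brighter genes. With only the dim arrays of Swiss 3 on the non-adipogenic side the position was 0.744.

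With arrays centred, these log2 differences reversed: Oaf 0.12, Lgals3 0.12, Hnrnpab 0.30, Grem1 0.36, Ncaph2 0.32, Gsto1 0.39, Rpf2 0.22, Fen1 0.12, Tcf7l1 0.61, Sox9 0.00091, Ldha 0.55, Idi1 0.82, Sdhb 0.99, Tk1 0.52, Birc5 0.65, Fosl1 0.15, Vegfa 0.29, Ckm 0.049, Epcam 0.31, Pparg 0.25, Cebpa 0.19 and Zfp423 -0.25. With no normalization they were Oaf 0.64, Anxa8 0.11, Lgals3 0.64, Hnrnpab 0.82, Tspan11 0.51, Grem1 0.88, Ncaph2 0.84, Gsto1 0.91, Rpf2 0.75, Fen1 0.64, Tcf7l1 1.14, Sox9 0.52, Ldha 1.07, Idi1 1.34, Sdhb 1.52, Tk1 1.04, Birc5 1.17, Fosl1 0.67, Vegfa 0.81, Ckm 0.57, Adgre1 0.35, Epcam 0.84, Pparg 0.77 and Cebpa 0.71. Set against the median of genes of like mean level in the same setting, all 22 genes reversed with centring and all 24 reversed with no normalization kept the sign of the main fit. The mean over probe sets reversed Cebpb (-0.0027) and Cebpd (-0.099), brightness as a term Epcam (0.22), the spike covariate Ckm (0.10) and Epcam (0.096), and leaving out Swiss 19 replicate 2 Zfp423 (-0.041).

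The chromosome 17 median minus that of other chromosomes, tried under settings chosen after seeing the data, was 0.035 with centred arrays and 0.035 with none, -0.139 with a pseudocount of 4, -0.018 with the higher one and -0.163 with linear scaling. Over genes above background it was -0.137, and -0.144, -0.144, -0.222, -0.063, -0.239 and -0.148 with centred arrays, no normalization, a pseudocount of 4, the higher one, linear scaling and cyclic loess.

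With the replicate number as a block, 65 genes were set apart higher and 17 lower, and 81 of the 85 were shared, but the numbers did not pair the arrays: 0 of 57 same-numbered pairs correlated above 0.1. The block changed no count by over 1.5 times. Swiss 19 rests on 2 arrays, all of it on 1 clone, and levels near background carry no order.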
